A study of Rattus norvegicus with 4 samples.

Results

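The microRNAs miR-143 and miR-145 were followed in cultured rat growth plate chondrocytes and in the matrix vesicles (MVs) these cells make. They were taken as the deposited rows of the genes Mir143 and Mir145, which gave 4 mature arms (miR-143-3p, miR-143-5p, miR-145-5p and miR-145-3p) of 740 mature miRNA names in the table. Chondrocytes came from the costochondral cartilage, the growth cartilage of the ribs, of male Sprague Dawley rats, whose age is not given in the sources used here. Resting zone chondrocytes (RC-cells) are the least mature cells of the growth plate, and growth zone chondrocytes (GC-cells) come from its prehypertrophic and upper hypertrophic part. MVs are small membrane vesicles of the cartilage matrix, and RC-MVs and GC-MVs were spun down from the trypsin digest of these cultures. All 4 groups were confluent, untreated cultures at passage 4 in medium with ascorbic acid and fetal bovine serum, which according to the methods was depleted of exosomes before use. Each group had 1 sequencing library, and it is not stated how many animals or cultures went into it.

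A miRNA gene is transcribed into a hairpin that is cut into a short duplex. One strand of this duplex, usually the same one in most cells, is loaded into the silencing complex and pairs with messenger RNAs mainly through its seed. miR-143 and miR-145 lie side by side and are made from a shared primary transcript. They are known as miRNAs of smooth muscle, fibroblasts and other mesenchymal cells, where they support the contractile state of smooth muscle, and miR-145-5p is known to target Sox9, the transcription factor of early cartilage.

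In the RefSeq annotation of the GRCr8 rat assembly, both hairpins lie on the minus strand of chromosome 18, Mir143 at chr18:57371349-57371453 and Mir145 at chr18:57369983-57370070. They are 1278 bases apart with 0 annotated genes between them, and both fall within the span of the long non-coding RNA gene Carmn, also named Mir143hg. The reads were counted by the authors on an older build, Rnor_6.0. The RefSeq hairpins are shown first, 5′ to 3′, because they place the arms whose reads are compared. Capitals mark the mature arms, with the 5p arm first and the 3p arm after the loop.
Mir143 hairpin: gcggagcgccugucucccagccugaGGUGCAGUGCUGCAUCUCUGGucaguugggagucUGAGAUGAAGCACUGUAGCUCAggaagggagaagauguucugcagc
Mir145 hairpin: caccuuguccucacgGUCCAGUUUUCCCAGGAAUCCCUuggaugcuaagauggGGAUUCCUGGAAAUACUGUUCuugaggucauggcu

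The mature arms follow with their seeds (bases 2 to 8) in capitals, since the seeds show whether the 4 arms could be grouped.
miR-143-3p: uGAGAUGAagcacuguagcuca
miR-143-5p: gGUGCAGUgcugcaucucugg
miR-145-5p: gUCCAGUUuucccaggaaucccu
miR-145-3p: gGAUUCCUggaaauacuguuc
The 4 seeds differ, and none of them is shared by another of the 694 mature rat sequences in the RefSeq table. Each arm therefore stood alone in its seed group, and each had 1 locus in the deposited table, so no counts had to be added together for them. The arms were 21 to 23 bases long. Their G and C content was 45.5% for miR-143-3p, 61.9% for miR-143-5p, 52.2% for miR-145-5p and 42.9% for miR-145-3p, against a median of 47.8% over all mature sequences. The base runs GGAG and CCCU, which have been linked to the sorting of miRNAs into vesicles, were searched on the mature strand as written. GGAG was in none of the 4 arms and in 8.07% of all mature sequences. CCCU was at the 3′ end of miR-145-5p, from base 20, and in 9.51% of all mature sequences. A match is a description of letters only.

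The libraries held 6517329 miRNA reads in RC-cells, 7414467 in GC-cells, 1108821 in RC-MVs and 982543 in GC-MVs. Counts are given as percents of the miRNA reads in the same library, which is how the study scaled them. Since every group had a single library, no spread between replicates was known and groups were not tested against each other. All intervals are at the 95% level and cover counting error only, and copies made by PCR count as separate reads. A percent of reads is not a percent of molecules, since the preparation of libraries does not capture all miRNAs equally well. Lists of miRNAs linked to other tissues were summed to check the source of the RNA. The 8 epithelial miRNAs, the miR-200 family among them, held between 0.00119% and 0.00275% of miRNA reads in the 4 libraries, with the highest value in GC-MVs. These were few reads, 27 in GC-MVs and 14 in RC-MVs. The 7 muscle miRNAs, which are mainly those of striated muscle, held 0.00994% in RC-cells and 0.00859% in GC-cells, nearly all of it miR-499-5p, and 0.00325% (36 reads) in RC-MVs and 0.00947% (93 reads) in GC-MVs. Both arms of miR-126a, an endothelial miRNA, summed to 0.0266% in RC-cells, 0.0223% in GC-cells, 0.0158% in RC-MVs and 0.064% in GC-MVs. The 6 cartilage miRNAs summed to between 0.526% and 1.00%, lowest in RC-cells and highest in RC-MVs. Most of this sum was miR-140-3p, with 0.383% in RC-cells and 0.951% in RC-MVs. miR-455-3p was higher in RC-MVs as well. miR-140-5p went the other way, from 0.0710% in RC-cells to 0.00848% in RC-MVs, and so did miR-455-5p, from 0.0627% to 0.0236%. The 6 blood miRNAs found in the table differed between MVs and cells, with 0.00124% in RC-cells, 0.00121% in GC-cells, 0.0885% in RC-MVs and 0.19% in GC-MVs. The 3 liver and serum miRNAs, such as miR-122-5p, went from 0.0284% in RC-cells to 0.418% in RC-MVs and from 0.0393% in GC-cells to 1.18% in GC-MVs. The sums of the epithelial, endothelial, blood and liver lists were thus all highest in GC-MVs, the library where miR-143-3p was highest too. The sum of the muscle list was higher in GC-MVs than in RC-MVs. Not every entry followed the sum of its list, as miR-126a-5p, miR-200c-3p and miR-203a-3p had their highest percents in RC-cells. The part of these lists in the levels of miR-143 and miR-145 was not tested. In such bulk samples, fewer cells that make a miRNA and less of it per cell cannot be told apart.

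miR-143-3p was by far the most abundant arm of the cluster. It had 730396 reads in RC-cells, or 11.2% of miRNA reads (interval 11.18% to 11.23%), and 130495 in RC-MVs, or 11.8% (11.71% to 11.83%). In the growth zone it had 1533595 reads in GC-cells, or 20.7% (20.65% to 20.71%), and 317902 in GC-MVs, or 32.4% (32.26% to 32.45%). From low to high the libraries thus went from RC-cells to RC-MVs, then GC-cells and last GC-MVs, and no intervals overlapped, although the step between RC-cells and RC-MVs was small. Among all miRNAs, miR-143-3p ranked second in both cell libraries, behind miR-21-5p, and number 3 in RC-MVs, behind miR-22-3p and miR-21-5p. It ranked first in GC-MVs, where miR-21-5p followed with 17.9%.

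miR-145-5p, the leading arm of its hairpin, was well below miR-143-3p in each library. It had 18763 reads in RC-cells, or 0.288% (0.284% to 0.292%), and 6065 in RC-MVs, or 0.547% (0.533% to 0.561%). GC-cells gave 36786 reads, or 0.496% (0.491% to 0.501%), and GC-MVs gave 6148, or 0.626% (0.610% to 0.642%). RC-cells were lowest and GC-MVs highest, as for miR-143-3p, but RC-MVs were above GC-cells. This order rests on the scaling, since RC-MVs were below GC-cells in 4 of 7 other scalings and settings tried, for example at 0.483% against 0.589% with TMM normalization (edgeR). Without miR-21-5p in the totals GC-cells (0.854%) were also above GC-MVs (0.762%). Its rank was 38 in RC-cells, 24 in GC-cells, 24 in RC-MVs and 19 in GC-MVs.

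The minor arms, which are mostly degraded when the other strand is loaded, still had between 447 and 4885 reads. miR-145-3p had 3473 reads in RC-cells (0.0533%), 4885 in GC-cells (0.0659%), 447 in RC-MVs (0.0403%) and 723 in GC-MVs (0.0736%). With these totals it was the one arm of the 4 that had a lower percent in RC-MVs than in RC-cells. miR-143-5p had 1751 reads in RC-cells (0.0269%), 2809 in GC-cells (0.0379%), 496 in RC-MVs (0.0447%) and 669 in GC-MVs (0.0681%). For every miR-145-3p read there were 0.504 reads of miR-143-5p in RC-cells (0.476 to 0.534) and 0.575 in GC-cells (0.549 to 0.602), so that miR-145-3p was the more frequent of the minor arms in cells. In MVs their order was not resolved at this depth, with 1.11 in RC-MVs (0.974 to 1.26) and 0.925 in GC-MVs (0.832 to 1.03).

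All 4 arms together made up 11.6% of miRNA reads in RC-cells, 21.3% in GC-cells, 12.4% in RC-MVs and 33.1% in GC-MVs. Nearly all of this was miR-143-3p, since both arms of miR-145 summed to 0.341%, 0.562%, 0.587% and 0.699% in the same order.

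**Figure D1:**
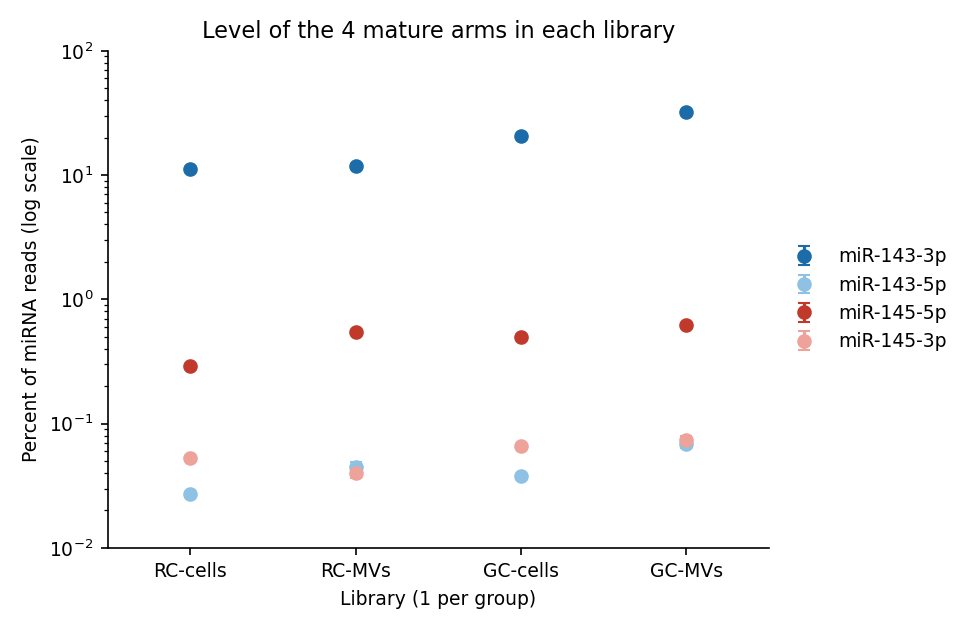
Percent of miRNA reads (log axis) of the 4 mature arms in the 4 libraries, 1 library per group, with 95% Wilson intervals that are mostly smaller than the points. miR-143-3p goes from 11.2% in RC-cells to 32.4% in GC-MVs, miR-145-5p lies between 0.288% and 0.626%, and both minor arms lie below it in each library.

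The first question was whether the cluster was held at a different share in MVs than in the cells that shed them. With percents of miRNA reads, no arm reached a 2-fold difference in either zone. When miR-22-3p was left out of the totals, miR-143-5p did so in both (2.04 and 2.12) and miR-145-5p in the resting zone (2.33). With those totals, 269 of 414 miRNAs tested reached 2-fold in the resting zone, 160 of them higher in RC-MVs. In the growth zone 247 of 417 did, 159 of them higher in GC-MVs. With percents of miRNA reads, 64% of the 414 tested reached 2-fold in the resting zone. These were 33.6% with a higher and 30.4% with a lower percent in RC-MVs. In the growth zone 57.3% of the 417 tested did so, 32.1% with a higher and 25.2% with a lower percent in GC-MVs. In RC-MVs against RC-cells, the ratio was 1.05 for miR-143-3p (1.04 to 1.06), close to the median miRNA, as 49.0% of the miRNAs tested had a lower ratio. This small difference changed sides with the scaling, as it was 0.986 with edgeR's TMM normalization and 0.727 when miR-21-5p was left out of the totals. The ratio of miR-145-5p was 1.90 (1.85 to 1.96) and that of miR-143-5p 1.66 (1.50 to 1.84). miR-145-3p was 1.32-fold lower in RC-MVs (1.20 to 1.46). The arms of one hairpin, miR-145, thus lay on opposite sides of equal shares in the resting zone.

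In GC-MVs against GC-cells, all 4 ratios were above 1. miR-143-3p was 1.56-fold higher in GC-MVs (1.56 to 1.57) and miR-143-5p 1.80-fold higher (1.65 to 1.96). miR-145-5p was 1.26-fold higher (1.23 to 1.30) and miR-145-3p 1.12-fold higher (1.03 to 1.21). Both miR-143 ratios stayed above 1 under the 7 other scalings and settings tried, the lowest being 1.11 for miR-143-3p. The ratio of miR-145-5p fell below 1 in 1 of them (0.892, totals without miR-21-5p) and that of miR-145-3p in 2 (down to 0.790). Leaving miR-21-5p out of the totals matters because its share of reads was 42.7% for RC-cells and 41.9% for GC-cells but 17.2% and 17.9% for their MVs.

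The ratios of MVs to cells were then set against each other across zones, as the difference of log2 ratios, growth zone minus resting zone. It was 0.57 for miR-143-3p (0.56 to 0.59) and -0.59 for miR-145-5p (-0.65 to -0.53), so that the 2 leading arms differed between zones in opposite directions. For miR-145-3p it was 0.56 (0.38 to 0.74), and for miR-143-5p 0.11 with an interval that included 0 (-0.08 to 0.30). Over the other scalings and settings it ranged from 0.44 to 0.89 for miR-143-3p and from -0.72 to -0.28 for miR-145-5p, with no change of sign in either.

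The second question was whether the cluster differed with the maturation of the cells. In GC-cells against RC-cells the arms were all higher in GC-cells, none of them by 2-fold, whereas 19.4% of the 474 miRNAs tested differed by 2-fold, 5.7% higher in GC-cells and 13.7% lower. The balance of these calls turned with the scaling, as 27 of 92 were higher in GC-cells with percents but 51 of 85 with TMM normalization and 53 of 85 with size factors. The ratio was 1.85 for miR-143-3p (1.84 to 1.85), 1.72 for miR-145-5p (1.69 to 1.75), 1.41 for miR-143-5p (1.33 to 1.50) and 1.24 for miR-145-3p (1.18 to 1.29). The median log2 ratio over all miRNAs was -0.24 with percents and 0.12 with DESeq2's size factors. Under any scaling of the totals, 93.5% of the miRNAs tested had a lower ratio than miR-143-3p and 90.3% a lower ratio than miR-145-5p. Under TMM normalization, DESeq2's size factors and totals without the 3 miRNAs that ranked first in at least 1 library (miR-143-3p, miR-22-3p and miR-21-5p), both leading arms came to lie past 2-fold, from 2.30 to 2.36 for miR-143-3p and from 2.15 to 2.21 for miR-145-5p.

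Between the MVs, miR-143-3p was 2.75-fold higher in GC-MVs than in RC-MVs (2.73 to 2.77) and was the one arm past 2-fold with percents of miRNA reads. In this comparison 39.3% of 397 miRNAs differed by 2-fold, 14.6% higher in GC-MVs and 24.7% lower. This balance turned too, from 37.2% of the calls being higher in GC-MVs to 53.6% with size factors and 75.5% without the same 3 miRNAs. A lower ratio than that of miR-143-3p was found for 94.0% of these miRNAs, and it stayed past 2-fold in all 7 other scalings and settings, from 2.64 to 4.26. The other arms were closer to equal, with 1.83 for miR-145-3p (1.62 to 2.06), 1.52 for miR-143-5p (1.35 to 1.71) and 1.14 for miR-145-5p (1.10 to 1.19). miR-145-3p came to lie past 2-fold in 3 of the 7 other settings (2.10 with TMM, 2.17 with size factors and 2.83 without the 3 miRNAs), and miR-143-5p in 1 (2.36 without the 3). miR-145-5p, whose ratio was close to that of miR-143-3p between the cells, thus had the smallest of the 4 ratios between the MVs.

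**Figure D2:**
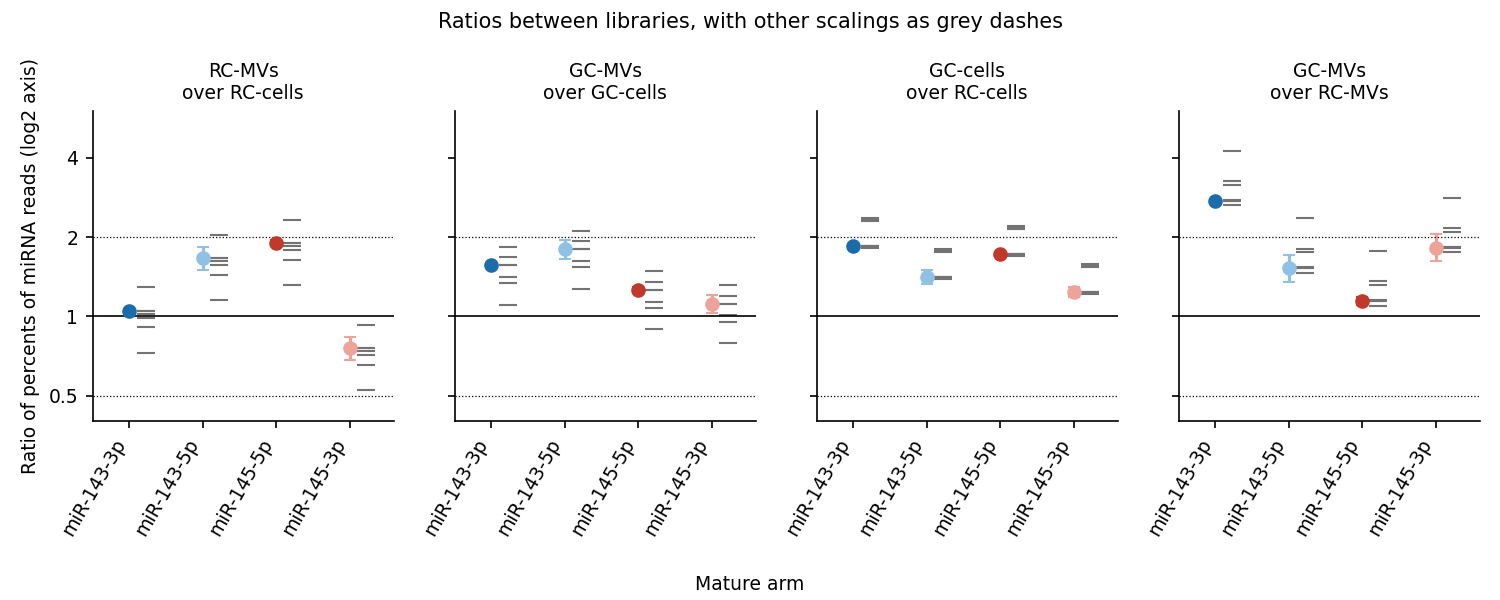
Ratio of percents of miRNA reads (log2 axis) of each arm in the 4 comparisons, with exact 95% counting intervals, the dotted lines marking 2-fold and the grey dashes giving the same ratio under the 7 other scalings and settings. The only ratio past 2-fold with percents of miRNA reads is that of miR-143-3p in GC-MVs over RC-MVs, at 2.75, and the ratios of GC-cells over RC-cells are all above 1.

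A ratio between arms of the same library does not depend on the library total, so it was used to compare the co-transcribed miRNAs directly. There were 38.9 reads of miR-143-3p for each read of miR-145-5p in RC-cells (38.4 to 39.5) and 41.7 in GC-cells (41.3 to 42.1). In the MVs there were 21.5 in RC-MVs (21.0 to 22.1) and 51.7 in GC-MVs (50.4 to 53.0). The cell libraries were thus close to each other, while the MV libraries lay on either side of them.

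The shift of this ratio was 1.81-fold down from RC-cells to RC-MVs and 1.24-fold up from GC-cells to GC-MVs. It was 1.07-fold between the cells and 2.40-fold between the MVs. The same shift was computed for 17 other pairs of mature arms, not in every case the leading ones, that come from one cluster each and had at least 10 reads in each library, with sizes compared regardless of direction. The median shift of these pairs was 2.77-fold from RC-cells to RC-MVs, 1.96-fold from GC-cells to GC-MVs, 1.11-fold between the cells and 1.37-fold between the MVs. From cells to MVs the pair of miR-143-3p and miR-145-5p shifted less than most, as 14 of 17 pairs shifted more in the resting zone and 15 of 17 in the growth zone. Between the MVs it shifted more than 16 of the 17, and only miR-15b-5p and miR-16-5p shifted more, by 5.38-fold. In log2 the size of the shift, whatever its direction, was 1.26 (1.21 to 1.32) for miR-143-3p and miR-145-5p, 2.43 (1.14 to 3.71) for miR-15b-5p and miR-16-5p, and 1.24 (1.12 to 1.35) for miR-199a-3p and miR-214-3p, the next in size, so the intervals of these 3 pairs overlap. Wide intervals of smaller shifts reach 1.26 too, as for miR-106b-5p and miR-25-3p (0.12 to 1.75) and miR-98-5p and let-7f-5p (0.44 to 1.45). The same holds for miR-17-5p and miR-20a-5p (-0.93 to 1.34) and, in the opposite direction, miR-192-5p and miR-194-5p (-1.54 to 0.63). The place of miR-143-3p and miR-145-5p among the pairs is thus not settled by these counts. These counts describe single libraries and are not a test, and 5 of the 17 pairs hold a miRNA with several loci.

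**Figure D3:**
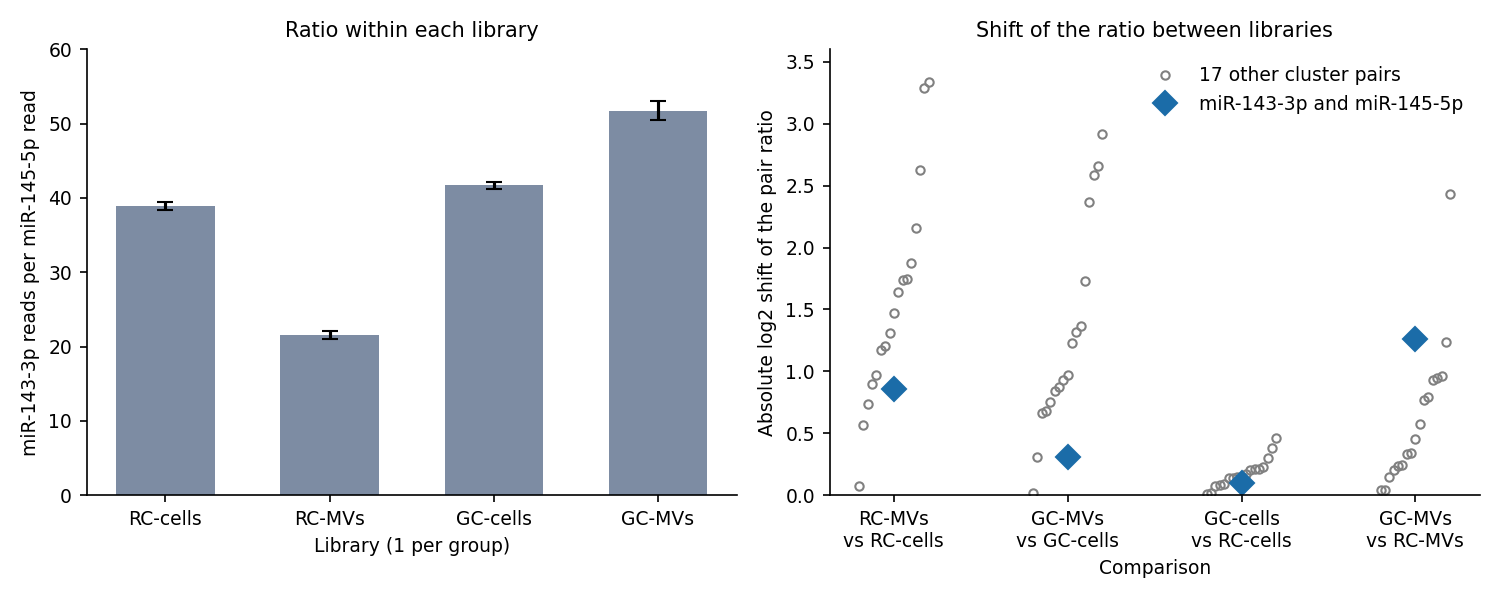
Left, reads of miR-143-3p per read of miR-145-5p in each library, with exact 95% counting intervals. Right, absolute log2 shift of that ratio in the 4 comparisons (diamonds) beside 17 pairs from other clusters (circles); the ratio is 38.9 and 41.7 in the cells but 21.5 in RC-MVs and 51.7 in GC-MVs, and in the comparison of MVs 1 circle lies above the diamond.

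The arms of each hairpin were compared next. miR-143 was strongly one-sided in favour of its 3p arm, whose share of both arms was 99.8% in RC-cells, 99.8% in GC-cells, 99.6% in RC-MVs and 99.8% in GC-MVs. For each miR-143-5p read there were 417 reads of miR-143-3p in RC-cells (398 to 437), 546 in GC-cells (526 to 567), 263 in RC-MVs (241 to 288) and 475 in GC-MVs (440 to 513). Both MV libraries were below the cells of their zone. miR-145 favoured the opposite arm, its 5p arm, and less strongly. Its 5p share was 84.4% in RC-cells (83.9% to 84.9%), 88.3% in GC-cells (88.0% to 88.6%), 93.1% in RC-MVs (92.5% to 93.7%) and 89.5% in GC-MVs (88.7% to 90.2%). RC-cells and RC-MVs were thus the extremes for miR-145, while the growth zone libraries lay between them.

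Beside the members, 69 precursors had at least 10 reads of both arms in each library, and the larger arm held a median of 88.3% of their reads in RC-cells and 87.8% in GC-MVs. In RC-cells, 66 of the 69 had a lower share in the larger arm than miR-143, and 28 had a lower share than miR-145. miR-143 was thus among the most one-sided hairpins of these cells, and miR-145 was near the middle.

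From RC-cells to RC-MVs the log2 ratio of leading to minor arm differed by -0.66 for miR-143 (-0.81 to -0.52) and by 1.33 for miR-145 (1.18 to 1.48). The difference between GC-cells and GC-MVs was smaller, -0.20 for miR-143 (-0.32 to -0.08) and 0.18 for miR-145 (0.06 to 0.29). The median of the 69 other precursors was -0.84 for RC-MVs and -0.77 for GC-MVs, and the leading arm gained on the minor arm in 25 and 24 of them. The leading arm was the one with more reads summed over the 4 libraries, and most of these reads came from the cell libraries. This choice favours a loss of the leading arm from cells to MVs, so the counts of 25 and 24 are not a neutral background. miR-145 was on the side of the fewer precursors in both zones, which for this reason is a description only.

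Between the cells the arm ratios of the other precursors were nearly the same, with a median absolute log2 shift of 0.21. Both members shifted further, toward the leading arm in GC-cells, by 0.39 for miR-143 (0.30 to 0.47) and 0.48 for miR-145 (0.41 to 0.55). No other precursor had a larger shift toward the leading arm than miR-145, and 3 had a larger one than miR-143. When direction was not counted, 2 had a shift of larger size than miR-145 and 8 had one of larger size than miR-143. With at least 100 reads of each arm required, which left 18 other precursors and was chosen after seeing the data, both members exceeded all 18. Between the MVs the shift from RC-MVs to GC-MVs was 0.85 for miR-143 (0.69 to 1.02) and -0.67 for miR-145 (-0.85 to -0.50), against a median absolute shift of 0.87.

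**Figure D4:**
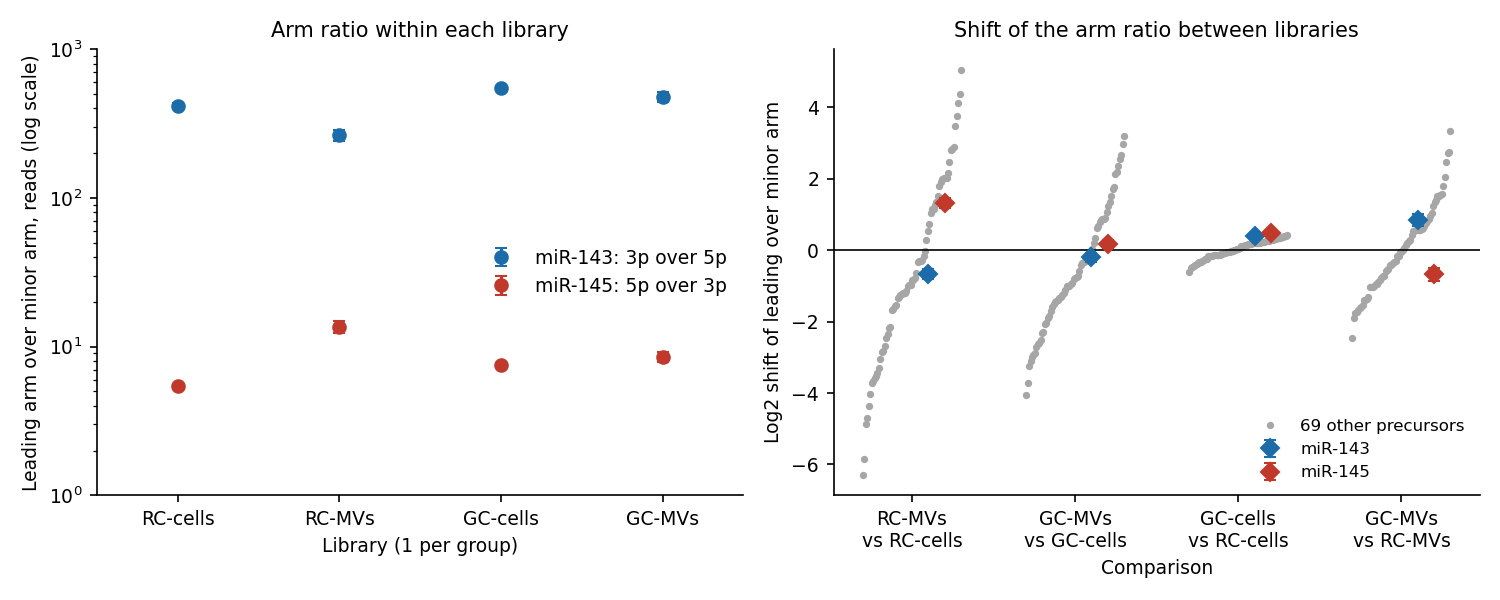
Left, reads of the leading arm per read of the minor arm (log axis) of miR-143 and miR-145 in each library, with exact 95% counting intervals. Right, log2 shift of that ratio in the 4 comparisons for both members (diamonds, with 95% counting intervals) and 69 other precursors (grey, in rank order); between GC-cells and RC-cells both diamonds, at 0.39 and 0.48, lie above nearly all grey points.

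Lastly, the leading arms were set beside 10 other miRNAs known to be abundant in mesenchymal cells, such as miR-199a, miR-214-3p, miR-21-5p and miR-221-3p. In GC-cells against RC-cells the ratios of these 10 lay between 0.572 (miR-221-3p) and 0.997 (miR-22-3p), all below those of miR-143-3p and miR-145-5p, an order that scaling does not change. All 10 were below 1 with percents of miRNA reads, but 6 of 10 were so with TMM normalization or DESeq2's size factors. None of them was past 2-fold, and their median log2 ratio was -0.47, against -0.24 over all miRNAs tested. From RC-cells to RC-MVs, 5 of the 10 were at least 2-fold lower and 1 higher, beside 30.4% lower and 33.6% higher of all miRNAs tested, with a median of -0.75 against 0.08 over all. Of the 5, miR-199a-3p (2.13-fold lower) and miR-222-3p (2.04-fold lower) lay close to the cut. Both come within 2-fold when totals leave out miR-22-3p, which raises every log2 ratio of this comparison by 0.29. From GC-cells to GC-MVs, 3 of the 10 were lower and 1 higher, beside 25.2% lower and 32.1% higher of all, with a median of -0.17 against 0.13. The one higher in both was miR-22-3p. Between the MVs, miR-143-3p had a higher ratio of GC-MVs to RC-MVs than each of the 10, of which the highest was miR-29a-3p at 2.35, while miR-145-5p was above 8 of them.

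The likeness of profiles was measured as the distance between the log2 percents of the 4 libraries, after each profile was centred on its own mean, over 130 other miRNAs with at least 100 reads in each library. miR-10b-5p was nearest to miR-143-3p, at 0.29, followed by miR-132-3p at 0.57 and miR-676 at 0.63. miR-10b-5p, from the HoxD cluster, had 0.0305% in RC-cells, 0.0449% in GC-cells, 0.0322% in RC-MVs and 0.0754% in GC-MVs. Nearest to miR-145-5p were miR-143-5p at 0.39, miR-132-3p at 0.51 and miR-130a-3p at 0.52, and nearest to miR-143-5p were miR-132-3p at 0.23, miR-1839-5p at 0.37 and miR-145-5p at 0.39. The leading arms of the cluster were 0.94 from each other, where miR-145-5p was number 10 in nearness to miR-143-3p, and the median distance of the 130 from miR-143-3p was 2.07. miR-145-3p was nearest to miR-192-5p at 0.25, miR-93-5p at 0.30 and let-7d-3p at 0.42, and farther from its own partner arm, miR-145-5p, at 0.95. With 4 libraries per profile, these distances are a description only.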

How the data were processed

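The authors isolated RNA with TRIzol, sequenced it on an Illumina instrument, checked read quality with FASTQC, aligned reads with Bowtie2 to the rat build Rnor_6.0 and tabulated miRNAs with miARma-Seq. The counts the authors deposited are unscaled whole reads for each miRNA locus. Trimming, tool versions and the treatment of reads with several matches are not given in the sources used here. Reads of near-identical miRNAs may have been split.

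Counts of the same mature name were added, which turned 774 loci into 740 names, and divided by all miRNA reads of the library. Totals ranged from 982543 to 7414467. Shares have Wilson intervals and ratios exact Clopper-Pearson intervals, at the 95% level. Intervals of differences between log2 ratios are normal approximations from the counts. A ratio was called at 2-fold where each of the libraries had at least 1 read. The code for the 2-fold calls and the intervals was run on simulated counts. That run was a check of the code only. It did not test the calls reported here, which rest on the deposited counts, or the spread between cultures. No differential test was run, because each group had 1 library.

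Each ratio was also computed under 7 other settings, namely TMM factors (edgeR), size factors (DESeq2), a total that leaves out miR-21-5p, one that leaves out miR-22-3p, one that leaves out both and miR-143-3p, a total over those miRNAs that reach 10 reads in every library, and a pseudocount of 0.5. For the share of miRNAs past 2-fold, a minimum of 10 reads, the whole interval beyond 2-fold, a 4-fold threshold and each locus as deposited were also tried. The miRNAs named are the 4 arms, the 3 nearest profiles of each, the mesenchymal list, and miR-21-5p and miR-22-3p for the scaling; the pairs miR-15b-5p and miR-16-5p and miR-199a-3p and miR-214-3p, and miR-499-5p of the muscle list, were named after their values were seen. miR-126a, miR-122-5p and the miR-200 family are named only as entries of the tissue lists. Further entries of these lists, and further cluster pairs whose intervals are given, were named after their values were seen. The members and all lists were chosen with earlier results of these data known. Of 22 listed cluster pairs, 17 passed the minimum of 10 reads. One blood miRNA of the list was not matched. RefSeq sequences (GRCr8) matched the 4 arms and 660 of the 740 names. The PCR array was not used here. Python 3.11.15, numpy 2.4.6, pandas 2.3.3, scipy 1.17.1, matplotlib 3.10.9, R 4.3.3, edgeR 4.0.16 and DESeq2 1.42.0 were used.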

Additional observations from a re-analysis of the deposited data

Results flagged for a closer look

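The 3 results given here went in opposite directions under the same comparison in different groups. Each rests on 1 library per group, so the difference was not tested.

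The percent of miR-145-3p had a log2 ratio of RC-MVs to RC-cells of -0.40, lower in the MVs, and a log2 ratio of GC-MVs to GC-cells of 0.16, higher in the MVs, a difference of 0.56. The growth zone side of this result changed sign in 2 of 7 other settings.

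The number of miR-143-3p reads per miR-145-5p read differed by -0.86 on the log2 scale from RC-cells to RC-MVs and by 0.31 from GC-cells to GC-MVs, a difference of 1.17. It is a ratio within each library, so no scaling of totals changes it.

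The ratio of miR-145-5p to miR-145-3p was higher in GC-cells than in RC-cells by 0.48 on the log2 scale and lower in GC-MVs than in RC-MVs, by -0.67, a difference of -1.15. RC-MVs, the library with 447 reads of miR-145-3p, enter all 3 of these results, and have the highest 5p share of miR-145 and the lowest ratio of miR-143-3p to miR-145-5p of the 4 libraries.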

How the results depend on the processing

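No paired analysis of MVs with the cells of their zone was run, as each group had 1 library, and no result came from a replicated test. Depth limits the minor arms in MVs most, where 447 to 723 reads were counted. Arm shares and the ratio of miR-143-3p to miR-145-5p stayed inside their intervals with a pseudocount of 0.5. With both arms of each hairpin summed, an alternative chosen after seeing the data, the latter ratio was 32.9 in RC-cells, 36.9 in GC-cells, 20.1 in RC-MVs and 46.4 in GC-MVs, in the same order.

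Ratios between libraries moved with the scaling, as each scaling multiplies the ratios of all miRNAs in a comparison by the same factor. In RC-MVs against RC-cells, the ratio of miR-143-3p was 0.986 with TMM normalization, 1.02 with size factors, 0.727 without miR-21-5p, 1.29 without miR-22-3p and 0.908 without the 3 abundant miRNAs (miR-143-3p, miR-22-3p and miR-21-5p). For miR-145-5p it was 1.78 with TMM, 1.31 without miR-21-5p, 2.33 without miR-22-3p and 1.64 without the 3. In GC-MVs against GC-cells, miR-143-3p gave 1.34 with TMM, 1.41 with size factors, 1.11 without miR-21-5p, 1.84 without miR-22-3p and 1.68 without the 3, and miR-145-5p gave 1.08, 1.14, 0.892, 1.49 and 1.35 in that order. In GC-cells against RC-cells, miR-143-3p gave 2.33 with TMM, 2.36 with size factors, 1.82 without miR-21-5p and 2.30 without the 3, and miR-145-5p gave 2.17 with TMM, 2.21 with size factors and 2.15 without the 3. In GC-MVs against RC-MVs, miR-143-3p gave 3.16 with TMM, 3.27 with size factors, 2.77 without miR-21-5p, 2.64 without miR-22-3p and 4.26 without the 3, and miR-145-5p gave 1.32 with TMM, 1.36 with size factors, 1.10 without miR-22-3p and 1.77 without the 3.

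The difference between zones of the MV to cell log2 ratio, for which the scalings were added after seeing the data, was 0.44 with TMM, 0.47 with size factors, 0.61 without miR-21-5p, 0.52 without miR-22-3p and 0.89 without the 3 for miR-143-3p. For miR-145-5p it was -0.72 with TMM, -0.70 with size factors, -0.65 without miR-22-3p and -0.28 without the 3.

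Of all miRNAs, 265 were past 2-fold between RC-MVs and RC-cells, 239 between GC-MVs and GC-cells, 92 between both kinds of cells and 156 between both kinds of MVs. With totals over miRNAs with 10 reads in all libraries, where 262 were tested, it was 171, 136, 25 and 90 in that order. A 4-fold threshold gave 143, 101, 20 and 32. Where 10 reads in each library were required, fewer miRNAs were tested, and it was 184 of 293 (62.8%), 144 of 275 (52.4%), 50 of 379 (13.2%) and 97 of 271 (35.8%). With the whole interval beyond 2-fold it was 179, 134, 24 and 61. Scaling by size factors moved the share of 2-fold calls that were higher in GC-cells from 29.3% to 62.4%, and that higher in GC-MVs over RC-MVs from 37.2% to 53.6%. Totals without miR-21-5p moved the share of calls that were higher in MVs from 52.5% to 38.0% (resting zone) and from 56.1% to 38.5% (growth zone). Size factors shifted the log2 ratio of every miRNA between the cells by 0.36, and TMM by 0.34.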

Other observations

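Of the miRNAs that had a RefSeq sequence and reached 10 reads in each library compared, the 27 that hold GGAG had a median log2 ratio of RC-MVs to RC-cells of 1.26, against 0.07 for the 238 that do not, and 15 of the 27 (55.6%) were at least 2-fold higher and 1 was lower, beside 77 (32.4%) higher and 73 lower of the 238. In GC-MVs against GC-cells the medians were 0.96 for 29 miRNAs with GGAG and 0.15 for 222 without, and 14 (48.3%) were higher and 1 lower with GGAG, beside 64 (28.8%) higher and 55 lower without. The sequences with GGAG were also richer in G and C, with a median of 54.5% against 47.8%, and the part of this in the result was not tested. The 4 arms of miR-143 and miR-145 hold no GGAG, and their log2 ratios were -0.40 to 0.93 in the resting zone and 0.16 to 0.85 in the growth zone. For CCCU, which miR-145-5p holds, the medians were 0.18 with it and 0.12 without in the resting zone and 0.12 with it and 0.19 without in the growth zone. At least 2-fold higher in RC-MVs were 3 of 21 with CCCU (14.3%) and 89 of 244 without (36.5%), and in GC-MVs 5 of 17 (29.4%) and 73 of 234 (31.2%). The median G and C content was 59.1% with CCCU and 47.8% without. This comparison was made after the data were seen and is a description of 1 library per group.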
